A study of Mus musculus with 10 samples.

Results

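Oxidative phosphorylation, the last stage of respiration, was followed gene by gene in mouse lung squamous cell carcinoma (SCC) and in normal lung. Its members were the nuclear genes whose symbols name subunits of the respiratory chain and of ATP synthase (those starting with Ndufa, Ndufb, Ndufc, Ndufs, Ndufv, Uqcr, Cox4 to Cox8 or Atp5, and Sdha to Sdhd), without Cox6a2, Cox7a1 and Cox8b, isoforms typical of muscle and brown fat that are described separately. The rule used names only and no measured value. It found 88 genes among the 19096 with a named probe, and 86 of them were bright enough to be tested, against 15586 of all genes. Cox7b2 and Cox8c, the untested members, were near background on most arrays. Ndufa4l2, Ndufb1 and the subunits encoded in the mitochondrial genome are not analysed here. Among the 88 genes are 7 assembly factors (Ndufaf1 to Ndufaf7), which share the Ndufa prefix but are not subunits of the finished enzyme.

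In the inner mitochondrial membrane, electrons from NADH enter at complex I and those from succinate at complex II. Both pass through ubiquinone to complex III, then through cytochrome c to complex IV, which hands them to oxygen. Complexes I, III and IV pump protons as they work, and complex V, the ATP synthase, lets the protons back to make ATP. Several complex IV subunits exist as tissue isoforms, and lung is known for a second form of subunit 4, Cox4i2, which responds to oxygen.

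The WT group was whole lung of 5 mice with floxed Lkb1 alleles and no Cre (Lkb1f/f). The SCC group was 5 lung tumours of CCSPiCreLkb1f/f mice, in which a codon-improved Cre is driven by the promoter of club cell secretory protein, so that Lkb1, a tumour suppressor kinase also called Stk11, is deleted in airway epithelial cells. Both groups carried the floxed alleles on a B6.129 background, were 13 months old and received no treatment; the study used both sexes, but the sex behind each sample is not given, and the labels do not name the animal behind each tumour, so p-values measure the spread between these samples. Each sample was read on 1 single-colour array, on 3 slides: WT replicates 1 to 4 on the first, WT replicate 5 with SCC replicates 1 to 3 on the second, and SCC replicates 4 and 5 on the third.

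Values below are log2 intensities after quantile normalization, so a difference of 1 is 2-fold, and every difference is SCC minus WT with its standard error (SE) from a limma fit. A gene rose or fell where the Benjamini-Hochberg adjusted p over all tested probes was below 0.05. The labels were checked against markers. All 7 of 7 squamous genes rose (all genes, 25.5%), with a median difference of 8.81, and 6 of 6 endothelial genes fell (all genes, 28.4%), with a median of -2.42. Other lung lists were less uniform. Lower were 4 of 6 alveolar type 2, 3 of 4 alveolar type 1, 3 of 4 club cell and 2 of 7 ciliated cell genes, and 1 alveolar type 1 gene rose. A pair of SCC arrays stood apart. SCC replicate 2 had less squamous keratin RNA (Krt5 at 15.60, where the rest of the group had 17.45 to 17.70), and SCC replicate 5 had 90.2% of its probes well above background, against 71.0% to 74.5% on the other 9 arrays. Since whole lung and tumour differ in their cells, fewer cells of a type and less RNA per cell cannot be told apart.

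Of the 86 genes, 25 rose in SCC (29.1%), 8 fell (9.3%) and 53 did not pass. Over all tested genes the same rule called 25.5% higher and 28.4% lower, so the share that rose was near the background and the share that fell was below it. The median difference of the members was 0.13 and that of all genes was -0.038. The members were also brighter, with a median level of 13.858 against 10.135 over all tested genes. The part of brightness in these shares was not tested. No member passed with a 2-fold difference, where all genes gave 11.6% higher and 13.4% lower. Differences of the members ran from -0.99 to 0.81, so all 86 lay within 1 log2 unit of no difference, as did 72.9% of all genes. Cox6a2, Cox7a1 and Cox8b, which the rule leaves out, fell by more, at -2.62, -1.57 and -5.26. The range and the lack of 2-fold calls therefore hold only without them. The split leaned on the scaling and on 1 array. Under 75th percentile scaling of each array there were 40 higher and 5 lower (all genes, 27.6% and 26.1%), and leaving out SCC replicate 2 left 24 higher and 18 lower (all genes, 30.2% and 33.7%). WT and SCC shared only the second slide, so the difference with slide as a block is that of 1 WT array, replicate 5, against 3 SCC arrays, with the spread taken from all slides and the lone WT array assumed to vary like the others. By this measure Atp5d, Cox6b1 and Cox7b rose and none fell (all genes, 6.94% higher and 7.98% lower). At an unadjusted p under 0.05 there were 15 higher and 1 lower (all genes, 16.1% and 18.3%). The second slide alone gave the same differences, and with its own spread limma called no member and 0% of all genes.

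**Figure D1:**
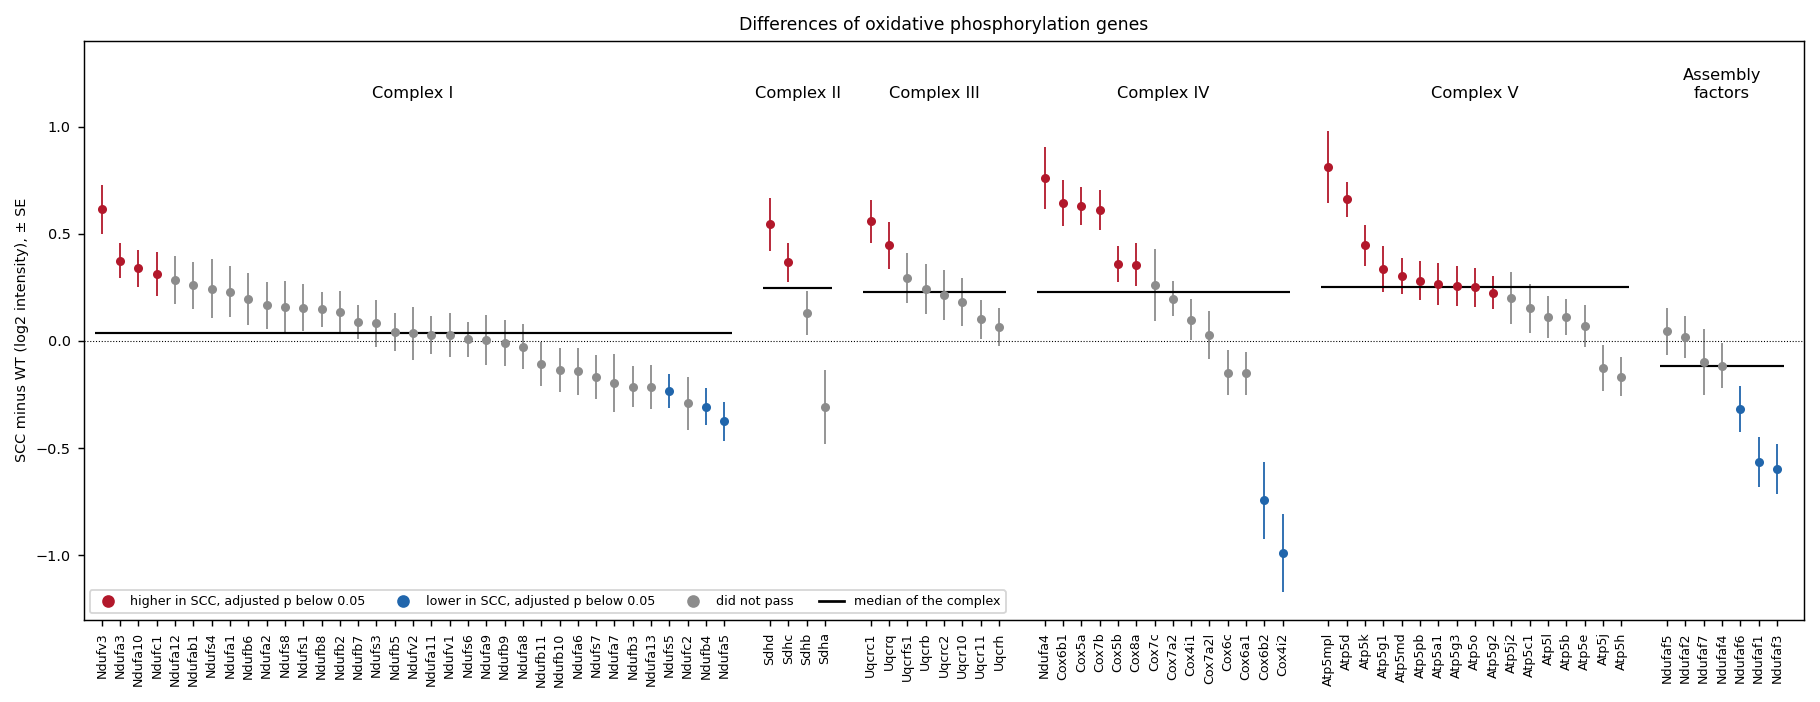
Difference of 85 of the 86 tested genes, SCC minus WT in log2 intensity on the vertical axis with its SE, grouped by complex and ordered by size on the horizontal axis; red genes rose, blue genes fell, grey genes did not pass, and a black line marks the median over all tested genes of each group. Red points make up 10 of 17 in complex V, and 3 of 7 assembly factors are blue.

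The regulatory windows of a few genes are shown because the isoform pairs of complex IV are set side by side in the results. The windows are the 250 bases before the transcription start, read 5′ to 3′ from RefSeq (build GRCm38.p6), which held 1 for 73 of the 88 members; Cox4i1, Cox4i2 and Cox6a2 had none. Capitals mark matches, on either strand, to any of 4 motifs: the NRF1 core (GCGC, any base, then TGCGC), the ETS core CCGGAAG, the YY1 core CCATNTT and the E-box CAGCTG. NRF1 and the ETS factor GABP are known regulators of nuclear genes for respiration, YY1 acts on many of the same promoters, and E-boxes bind myogenic factors among others. Cox6a1, Cox7a2 and Cox8a are the broadly expressed forms of their subunits, Cox7a1 and Cox8b the muscle and brown fat forms, and Cox5a is the complex IV gene with the smallest p.
Cox6a1 (GRCm38.p6, chr5:115348959-115349208, minus strand): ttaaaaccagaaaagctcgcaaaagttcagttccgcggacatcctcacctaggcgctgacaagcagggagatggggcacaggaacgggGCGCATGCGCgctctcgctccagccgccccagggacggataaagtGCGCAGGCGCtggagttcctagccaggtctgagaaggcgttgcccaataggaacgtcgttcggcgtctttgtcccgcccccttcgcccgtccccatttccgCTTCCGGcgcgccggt
Cox7a2 (GRCm38.p6, chr9:79759854-79760103, minus strand): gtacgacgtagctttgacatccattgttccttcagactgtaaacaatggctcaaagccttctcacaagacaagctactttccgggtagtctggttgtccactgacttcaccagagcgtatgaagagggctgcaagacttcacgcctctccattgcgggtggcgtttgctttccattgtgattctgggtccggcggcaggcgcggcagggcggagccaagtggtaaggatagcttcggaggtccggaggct
Cox7a1 (GRCm38.p6, chr7:30183921-30184170, plus strand): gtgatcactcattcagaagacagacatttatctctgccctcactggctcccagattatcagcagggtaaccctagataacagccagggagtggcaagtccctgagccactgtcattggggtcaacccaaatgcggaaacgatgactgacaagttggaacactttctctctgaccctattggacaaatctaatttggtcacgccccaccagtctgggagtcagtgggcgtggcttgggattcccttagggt
Cox8a (GRCm38.p6, chr19:7217617-7217866, minus strand): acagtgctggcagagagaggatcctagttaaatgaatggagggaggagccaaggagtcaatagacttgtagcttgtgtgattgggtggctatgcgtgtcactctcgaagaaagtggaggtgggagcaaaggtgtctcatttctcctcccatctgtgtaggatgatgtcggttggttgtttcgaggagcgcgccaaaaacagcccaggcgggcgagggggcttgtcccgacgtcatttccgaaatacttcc
Cox8b (GRCm38.p6, chr7:140900447-140900696, minus strand): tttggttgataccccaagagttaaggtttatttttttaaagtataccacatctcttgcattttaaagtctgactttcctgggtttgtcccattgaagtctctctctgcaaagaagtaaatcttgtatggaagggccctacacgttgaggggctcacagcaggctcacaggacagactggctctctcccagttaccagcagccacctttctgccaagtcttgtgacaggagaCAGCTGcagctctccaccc
Cox5a (GRCm38.p6, chr9:57520982-57521231, plus strand): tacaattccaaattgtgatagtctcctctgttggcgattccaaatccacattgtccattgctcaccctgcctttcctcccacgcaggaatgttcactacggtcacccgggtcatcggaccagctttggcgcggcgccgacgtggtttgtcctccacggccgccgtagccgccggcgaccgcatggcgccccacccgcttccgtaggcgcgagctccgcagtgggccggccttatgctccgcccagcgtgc

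The Cox6a1 window held 2 NRF1 cores and 1 ETS core, and the Cox8b window held 1 E-box. None of the 4 motifs was found in the windows of Cox7a2, Cox7a1, Cox8a or Cox5a. Bases G and C made up 62.8% of the Cox6a1 window and 47.2% of the Cox8b window. Across members, the NRF1 core was in 13 of 73 windows (17.8%), against 3.86% of the 27025 windows of that length in the table. The ETS core was in 12 (16.4%, against 7.05%), the YY1 core in 8 (11%, against 12.5%) and the E-box in 5 (6.85%, against 12.8%). Of the windows with an NRF1 core, 3 belonged to genes that rose (of 20 such genes with a window), 3 to genes that fell (of 6) and 7 to genes that did not pass (of 46). These are matches of letters, with no measure of binding.

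Complex I, which takes electrons from NADH, was the largest group and had the median nearest 0. Of its 36 tested subunits 5 rose, 3 fell and 28 did not pass, and the median difference was 0.039. With 75th percentile scaling 10 were higher and 1 lower, and without SCC replicate 2 there were 5 higher and 9 lower. The median was 0.13 with that scaling and 0.0055 when SCC replicate 2 was dropped, and dropping SCC replicate 4 gave 0.075. It turned to -0.012 without SCC replicates 2 and 5 and to -0.0086 with array weights, so its sign was not settled. Ndufv3, an accessory subunit of the arm that binds NADH, read 12.32, 12.77, 12.50, 12.47 and 12.32 on WT replicates 1 to 5 and 13.12, 13.20, 12.98, 12.92 and 13.24 on SCC replicates 1 to 5. The groups did not overlap, and the gene rose by 0.61 ± 0.11 (1.53-fold, limma adjusted p = 0.00161). That value comes from its brightest probe. The other 2 Ndufv3 probes, both dimmer, gave -0.18 (adjusted p = 0.335) and 0.22 (adjusted p = 0.315). The accessory subunit Ndufa3 rose by 0.37 ± 0.08 (adjusted p = 0.0038), and the accessory subunits Ndufa10, at 0.34 (adjusted p = 0.0088), and Ndufc1, at 0.31 (adjusted p = 0.0303), also rose. The call of Ndufc1 was lost in 6 of the 10 cases in which a single array was left out.

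Ndufa5, an accessory subunit of the matrix arm, had the lowest difference of the complex. It read 14.31, 14.58, 14.45, 14.55 and 14.47 in WT and 14.18, 14.19, 13.999, 13.93 and 14.19 in SCC, with no overlap, and fell by 0.37 ± 0.092 (adjusted p = 0.00758). Ndufb4, of the membrane arm, read 14.26, 14.37, 14.30, 14.37 and 14.27 in WT and 14.01, 14.17, 13.96, 13.81 and 14.08 in SCC. Its groups did not overlap either, at a difference of -0.31 ± 0.088 (adjusted p = 0.0163), but with 75th percentile scaling it was -0.19 and did not pass (adjusted p = 0.0757). Ndufs5 was at -0.23 (adjusted p = 0.0353), a call lost in 7 of the 10 leave-outs, and with 75th percentile scaling it was at -0.058 (adjusted p = 0.677). Several core subunits did not pass: Ndufs1, which carries iron-sulphur clusters, was at 0.16 (adjusted p = 0.261), Ndufs7 at -0.17 (adjusted p = 0.194), and Ndufv1, which binds NADH, at 0.028 (adjusted p = 0.835). Without SCC replicate 2, Ndufs7 passed as lower, at -0.24 (adjusted p = 0.026), and Ndufv1 turned to -0.043. Ndufab1, the mitochondrial acyl carrier protein, was at 0.26 (adjusted p = 0.0728) by its brightest probe, and its dimmer probe gave 1.53 (adjusted p = 7.03e-05), the widest gap between probes of 1 member.

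Complex II, succinate dehydrogenase, also works in the tricarboxylic acid cycle. Its membrane anchors rose and its catalytic subunits did not pass, for a median of 0.25 over 4 genes. The anchor Sdhd read 14.01, 13.89, 13.81, 13.71 and 13.91 on the WT arrays and 14.30, 14.80, 14.31, 14.20 and 14.44 on the SCC arrays. All SCC arrays were above all WT arrays, at a difference of 0.54 ± 0.12 (1.46-fold, adjusted p = 0.00514). The other anchor, Sdhc, ranged over 11.85 to 11.997 in WT and 12.20 to 12.56 in SCC, a rise of 0.37 ± 0.091 (adjusted p = 0.00799). Sdhb, the iron-sulphur subunit, was at 0.13 (adjusted p = 0.316). Sdha, the flavoprotein that oxidises succinate, read 11.80, 11.88, 11.91, 11.97 and 11.68 in WT and 11.27, 12.21, 11.48, 11.41 and 11.34 in SCC. SCC replicate 2 was the highest of all 10 arrays and the other 4 SCC arrays were below every WT array, at a difference of -0.31 ± 0.17 (adjusted p = 0.165). Without SCC replicate 2, Sdha was at -0.47 (adjusted p = 0.00116). The second probe of Sdha gave 0.06 (adjusted p = 0.775).

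Complex III, the cytochrome bc1 complex, had 8 tested subunits, of which 2 rose, none fell and all had a difference above 0 (median 0.23). With 75th percentile scaling 7 of the 8 were higher and none lower. At an unadjusted p under 0.05, limma had 3 higher and 0 lower (all genes, 28.7% and 31.8%), and the methods' t-test after adjustment had 2 and 0 (25.5% and 28.1%). The core protein Uqcrc1 read 13.26, 13.58, 13.34, 13.61 and 13.44 in WT and 13.94, 13.88, 14.18, 13.97 and 14.06 in SCC, a rise of 0.56 ± 0.10 (1.47-fold, adjusted p = 0.00138) with no overlap. Its second probe gave 0.62 (adjusted p = 0.00111). The small subunit Uqcrq rose by 0.45 ± 0.11 (adjusted p = 0.00783); it ranged over 14.80 to 15.19 in WT and 15.32 to 15.72 in SCC. Others did not pass: the Rieske iron-sulphur protein Uqcrfs1 was at 0.29 (adjusted p = 0.0604), the second core protein Uqcrc2 at 0.21 (adjusted p = 0.155), Uqcr11 at 0.10 (adjusted p = 0.376) and the hinge protein Uqcrh at 0.065 (adjusted p = 0.568). Of these, all but Uqcrh passed with 75th percentile scaling, Uqcrfs1 at 0.37 (adjusted p = 0.0166), Uqcrc2 at 0.32 (adjusted p = 0.03) and Uqcr11 at 0.23 (adjusted p = 0.0267). Without SCC replicate 2, Uqcrfs1 was at 0.23, Uqcrc2 at 0.13 and Uqcr11 at 0.044, whereas Uqcrh was at 0.11, and none of them passed.

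Complex IV, cytochrome c oxidase, had the widest range of differences. Of 14 tested genes 6 rose, 2 fell and 6 did not pass, and the median was 0.23. Ndufa4, first named as a complex I protein and since placed in complex IV, read 14.37, 14.22, 14.39, 14.56 and 14.07 in WT and 15.14, 14.63, 15.27, 15.14 and 15.23 in SCC. It rose by 0.76 ± 0.14 (1.69-fold, adjusted p = 0.00197) without overlap, although SCC replicate 2 lay well under the other SCC arrays. Cox5a, which sits on the matrix side, read 15.36, 15.55, 15.28, 15.54 and 15.47 in WT and 16.02, 15.99, 16.04, 16.09 and 16.21 in SCC, a rise of 0.63 ± 0.088 (1.55-fold, adjusted p = 0.000312). Cox6b1, on the side facing cytochrome c, went from 10.65, 10.93, 10.70, 11.04 and 10.59 in WT to 11.38, 11.45, 11.44, 11.30 and 11.54 in SCC. That was a rise of 0.64 ± 0.11 (adjusted p = 0.000953), and with slide as a block it was 0.84 (adjusted p = 0.0346). Cox7b rose by 0.61 ± 0.093 (adjusted p = 0.000519) and with slide as a block was at 0.71 (adjusted p = 0.0453). Cox5b and Cox8a rose by 0.36 (adjusted p = 0.00542) and 0.36 (adjusted p = 0.0141). The supercomplex factor Cox7a2l was at 0.028 (adjusted p = 0.855), and at -0.041 without SCC replicate 2.

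The genes of complex IV that fell were both restricted isoforms. Cox4i2, the oxygen-responsive form, read 5.68, 5.58, 5.94, 5.79 and 5.73 in WT and 4.96, 4.83, 5.18, 4.68 and 4.13 in SCC, dim but well above background on all 10 arrays. The groups did not overlap and the gene fell by 0.99 ± 0.18 (1.99-fold, adjusted p = 0.00158). With 75th percentile scaling the difference was -0.57 and the call was lost (adjusted p = 0.201), and with normexp background correction, which compresses dim probes, it was -0.35 (adjusted p = 0.000948). Pericyte markers moved beside it: 4 of 7 fell (all genes, 28.4%), namely Higd1b at -1.33, Pdgfrb at -0.83, Notch3 at -0.60 and Kcnj8 at -0.42. Rgs5 rose by 2.33, and the mean level of the list was 10.99 to 11.21 in WT and 10.81 to 11.00 in SCC. All 7 markers were well above background on all WT arrays, and their part in the Cox4i2 value was not tested. Cox6b2, known as the testis form of subunit 6b, read 9.76, 10.22, 9.68, 10.49 and 9.70 in WT and 8.99, 9.45, 9.13, 9.40 and 9.17 in SCC. It fell by 0.74 ± 0.18 (1.67-fold, adjusted p = 0.0072), while Cox6b1, the common form, rose. Cox4i1, the common form of subunit 4, was at 0.10 (adjusted p = 0.395), and at 0.033 (adjusted p = 0.677) without SCC replicate 2.

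The muscle and brown fat isoforms that the naming rule leaves out were far lower in SCC. Cox8b read 9.38, 11.85, 10.91, 10.50 and 10.48 in WT and 6.01, 7.76, 4.24, 4.96 and 3.85 in SCC, a difference of -5.26 ± 0.73 (38.3-fold lower, adjusted p = 0.000315); 4 of 5 SCC arrays were well above background. Cox6a2 read 11.84, 14.20, 13.18, 12.81 and 12.63 in WT and 10.56, 9.95, 10.68, 9.62 and 10.75 in SCC, a difference of -2.62 ± 0.41 (adjusted p = 0.000608). Neither gene overlapped between groups. Cox7a1 read 10.62, 13.24, 12.33, 11.99 and 11.77 in WT and 10.46, 10.47, 10.46, 10.08 and 10.63 in SCC, a difference of -1.57 ± 0.40 (adjusted p = 0.00897) in which WT replicate 1 lay just under SCC replicate 5. Of their broadly expressed partners Cox8a rose, as above, Cox6a1 was at -0.15 (adjusted p = 0.236) and Cox7a2 at 0.20 (adjusted p = 0.0701). Cox6a1 turned to 0.15 with 75th percentile scaling. Cox7a2 passed as higher by its dimmer probe, at 0.25 (adjusted p = 0.0482), and with 75th percentile scaling, at 0.30 (adjusted p = 0.0134).

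In all 3 of the left-out genes WT replicate 1 was the lowest WT array and WT replicate 2 the highest. Myh6, the cardiac myosin heavy chain, ran the same way, at 10.06, 14.03, 12.77, 12.01 and 12.50 in WT, and read 8.02, 9.84, 5.67, 6.80 and 7.62 in SCC. Of the 7 cardiac markers 6 fell (all genes, 28.4%), with a median of -3.37. Their mean level was 10.29 to 14.05 in WT and 8.39 to 10.25 in SCC. Of 6 tested skeletal muscle markers 1 fell, the myosin heavy chain Myh8, and 5 of the 6 differences were below 0 (median -0.88). The mean level of these markers was 7.16 to 8.66 in WT and 5.97 to 7.34 in SCC. The mean level of the 6 tested brown fat markers was 8.71 to 10.20 in WT and 9.15 to 9.99 in SCC. In both lists too WT replicate 1 was the lowest WT array and WT replicate 2 the highest. Of the brown fat markers Cidea and Fabp4 rose, whereas Adipoq and Plin1 fell; white fat also expresses Fabp4, Adipoq and Plin1. Ucp1, which defines brown fat, was well above background on 1 WT and 1 SCC array, too few to be tested. The part of RNA from heart muscle, skeletal muscle or fat in the values of Cox8b, Cox6a2 and Cox7a1 was not tested.

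**Figure D2:**
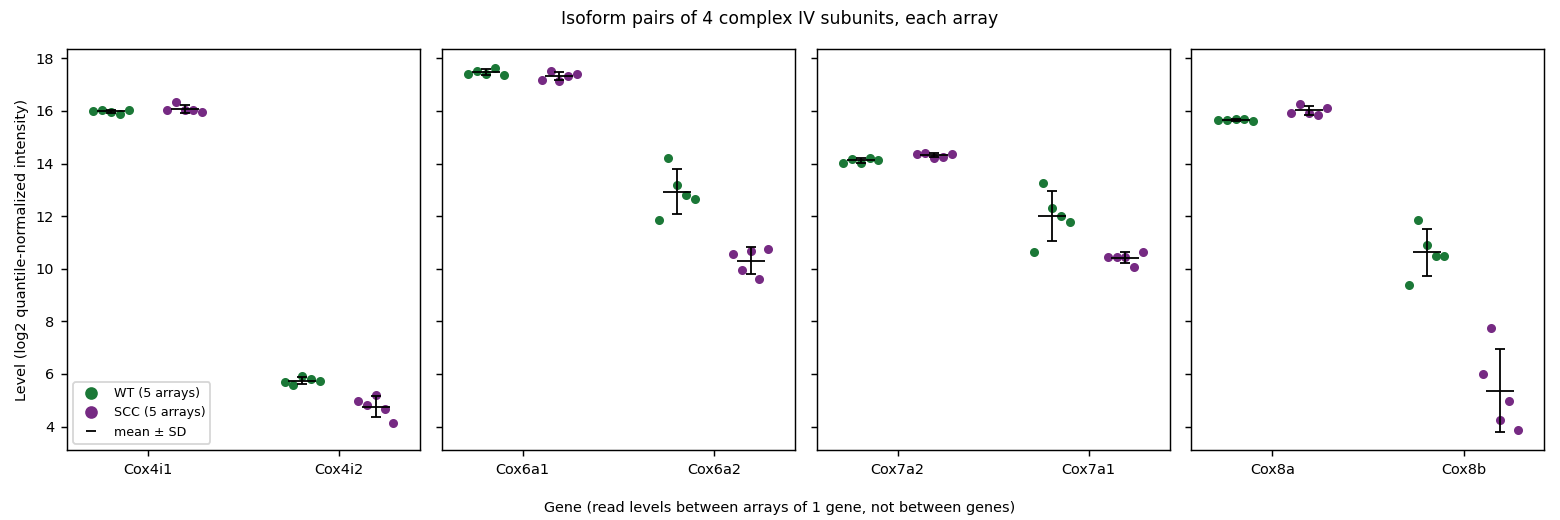
Levels of 4 pairs of complex IV isoforms on each array in log2 quantile-normalized intensity, WT in green and SCC in purple, with the mean and SD of 5 arrays; the common isoform is on the left of each panel. SCC arrays of Cox8b, Cox6a2 and Cox4i2 lie under all WT arrays, Cox7a1 overlaps, and Cox4i1, Cox6a1 and Cox7a2 overlap within a narrow range. Levels compare between arrays of 1 gene and not between genes.

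Complex V, the ATP synthase, had the most genes that rose: 10 of 17, with none lower and 15 above 0 (median 0.25). At an unadjusted p under 0.05, limma had 10 higher and 0 lower (all genes, 28.7% and 31.8%), and the methods' t-test after adjustment had 10 and 0 (25.5% and 28.1%). The count moved under other settings. With 75th percentile scaling 13 were higher (all genes, 27.6%), without the filter on dim probes 6 (23.7%) and with a replicate block 3 (21.2%). Leaving out 1 array at a time gave 4 to 9 higher (all genes, 22% to 30.2%). Without SCC replicate 2 there were 9 higher and 2 lower (30.2% and 33.7%). Atp5d, the delta subunit of the rotating stalk, read 13.11, 13.01, 12.92, 13.11 and 13.14 in WT and 13.62, 13.80, 13.77, 13.69 and 13.70 in SCC. Both groups were tight and apart, a rise of 0.66 ± 0.08 (1.58-fold, adjusted p = 0.000139), and with slide as a block it was 0.59 (adjusted p = 0.049). Atp5mpl, a small proteolipid of the membrane part, read 12.001, 12.56, 12.44, 12.43 and 12.46 in WT and 13.25, 12.65, 13.36, 13.41 and 13.29 in SCC. Of the 86 genes in this fit it had the largest rise, 0.81 ± 0.17 (1.76-fold, adjusted p = 0.00294), with WT replicate 1 and SCC replicate 2 each low in their groups. Atp5k, subunit e at the dimer interface, rose by 0.45 ± 0.094 (adjusted p = 0.00346), and Atp5md, another small membrane subunit, by 0.30 ± 0.083 (adjusted p = 0.0127). The calls of these 4 genes held whichever array was left out.

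The 3 genes of the proton-carrying c-ring, whose mature proteins are identical, all passed: Atp5g1 was at 0.34 (adjusted p = 0.0251), Atp5g3 at 0.26 (adjusted p = 0.0422) and Atp5g2 at 0.22 (adjusted p = 0.0358). WT and SCC arrays overlapped for Atp5g1 and Atp5g3 and not for Atp5g2, and whether a probe also binds RNA of the other copies was not tested. In the stator, Atp5pb, the b subunit, was at 0.28 (adjusted p = 0.0282) and Atp5o, the oligomycin sensitivity protein, at 0.25 (adjusted p = 0.0445). Atp5a1, the alpha subunit of the catalytic head, was at 0.27 (adjusted p = 0.0497), a call lost whichever array was left out. Its dimmer probe gave 0.19 (adjusted p = 0.215). The calls of Atp5g1, Atp5g2, Atp5g3, Atp5pb and Atp5o were lost in 4 to 7 of the 10 leave-outs. Atp5b, the catalytic beta subunit, read 16.54, 16.70, 16.52, 16.40 and 16.55 in WT and 16.62, 16.74, 16.55, 16.74 and 16.62 in SCC by its brightest probe and did not pass, at 0.11 (adjusted p = 0.3). Its dimmer probes gave 0.53 (adjusted p = 0.00196) and 0.74 (adjusted p = 0.000659), and with 75th percentile scaling the brightest gave 0.37 (adjusted p = 0.0055). The lowest differences were those of stator subunits, Atp5h at -0.17 (adjusted p = 0.153) and Atp5j at -0.12 (adjusted p = 0.35), and Atp5j turned to 0.029 with 75th percentile scaling. Without SCC replicate 2 both passed as lower, Atp5h at -0.23 (adjusted p = 0.00799) and Atp5j at -0.21 (adjusted p = 0.0217).

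Among the assembly factors of complex I none of 7 rose and 3 fell, with a median of -0.12. The median was -0.24, with 4 lower, without SCC replicate 2, -0.2049 with array weights, -0.19 without SCC replicates 2 and 5 and -0.31 as the median over all probes of each gene. At an unadjusted p under 0.05 limma had 0 higher and 3 lower (all genes, 28.7% and 31.8%), as had the methods' t-test after adjustment (25.5% and 28.1%). Ndufaf3, which acts early in assembly, read 11.26, 11.08, 11.03, 10.99 and 11.000 in WT and 10.47, 10.81, 10.26, 10.31 and 10.53 in SCC. It fell by 0.60 ± 0.12 (1.51-fold, adjusted p = 0.00248) with no overlap. Ndufaf1, a chaperone of membrane arm intermediates, read 10.51, 10.46, 10.36, 10.40 and 10.42 in WT and 9.83, 10.28, 9.69, 9.76 and 9.77 in SCC. It fell by 0.56 ± 0.12 (adjusted p = 0.00337), with SCC replicate 2 the nearest to WT. Ndufaf6 was at -0.32 (adjusted p = 0.034), a call lost in 7 of 10 leave-outs, and Ndufaf2 and Ndufaf5 were at 0.018 (adjusted p = 0.891) and 0.045 (adjusted p = 0.749).

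The complexes were also read on single arrays. Each gene was set against its own WT mean, and the median over the genes of a complex was taken on each array. In complex V these medians were -0.031, 0.11, -0.0064, 0.033 and -0.062 on WT replicates 1 to 5 and 0.15, 0.37, 0.14, 0.19 and 0.25 on SCC replicates 1 to 5, so every SCC array lay above every WT array. Complexes II, III and IV also stood above all WT arrays on each SCC array. In complex I the WT medians were -0.052, 0.11, -0.0077, 0.038 and -0.053 and the SCC medians 0.041, 0.25, -0.024, -0.063 and 0.029, of which 3 lay within the WT range. SCC replicate 2 was above every WT array and SCC replicate 4 below every WT array. The assembly factors were at 0.081, 0.0055, -0.04, -0.0091 and -0.041 in WT and -0.22, -0.15, -0.26, -0.09 and -0.25 in SCC, with no overlap. SCC replicate 2 had the highest SCC median in complexes I to V. With slide as a block the median differences were 0.16 in complex I, 0.38 in II, 0.34 in III, 0.16 in IV, 0.30 in V and -0.031 in the assembly factors. These medians are descriptions with no test.

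**Figure D3:**
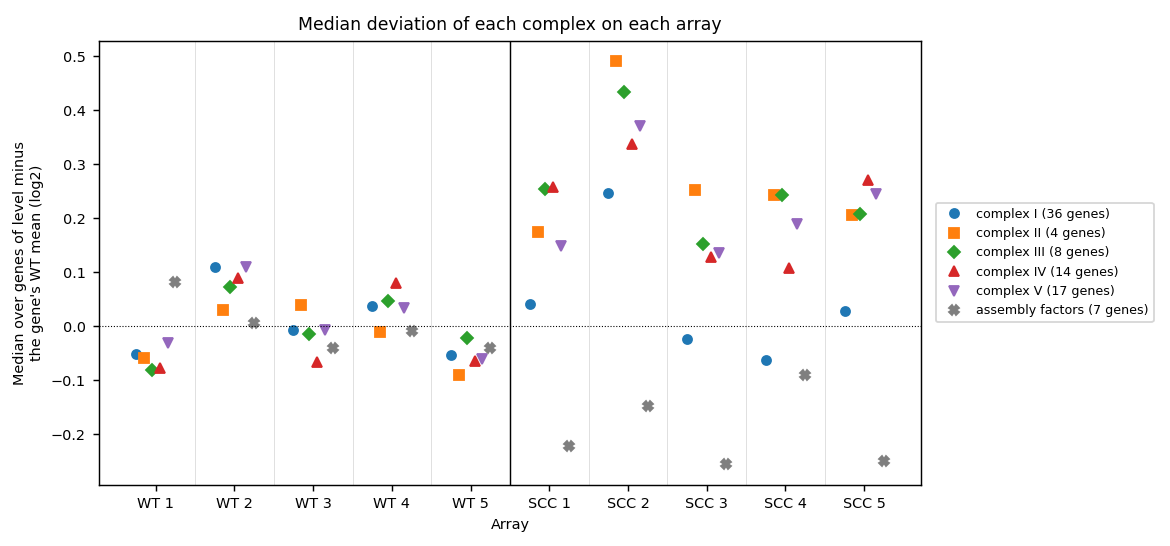
Median over the genes of each complex of the level minus the gene's WT mean (log2, vertical axis) on each of the 10 arrays (horizontal axis), with a symbol and colour for each complex. Complexes II to V lie above the WT arrays on all 5 SCC arrays, complex I stays near the WT range except on SCC replicate 2 at 0.25, and the assembly factors lie below.

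Probes of 1 gene could be compared for 19 members, which had 24 further probes. In 20 of the 24 the sign was that of the brightest probe, in 15 the call was the same, and in none was a call opposite. Dimmer probes gave larger rises for Atp5b and Ndufab1, as above, and for Ndufa12, whose brightest probe did not pass at 0.28 (adjusted p = 0.0589) and whose others gave 0.37 (adjusted p = 0.015) and 0.46 (adjusted p = 0.00156). Scaling shifted the members together: with 75th percentile scaling their differences were higher by a median of 0.097 log2 units, against 0.039 over all genes. All 25 genes that rose under quantile normalization also rose under that scaling, and 5 of the 8 that fell also fell. Cox4i1, at 0.32 (limma adjusted p = 0.00739), was among the genes that passed as higher under that scaling and not under quantile normalization.

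**Figure D4:**
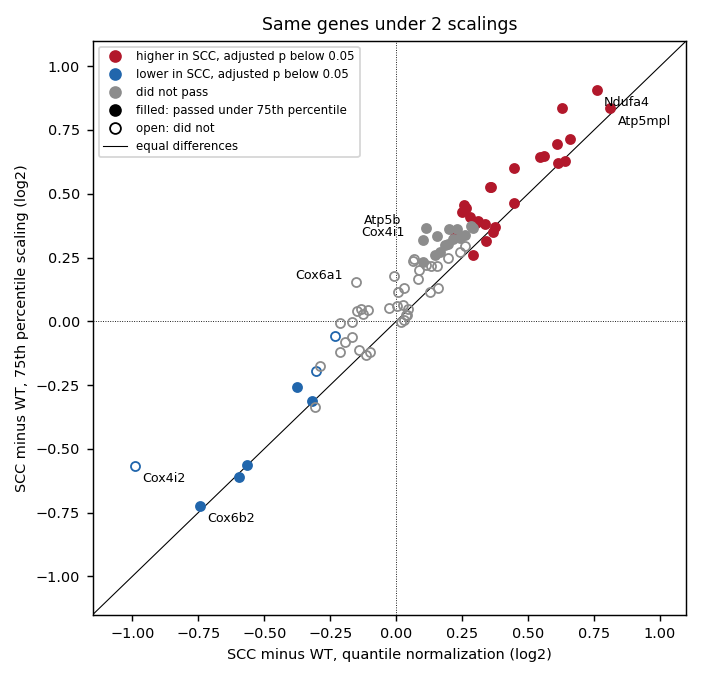
Difference of the 86 genes under quantile normalization (horizontal axis, log2) and under 75th percentile scaling (vertical axis, log2), coloured by the call under quantile normalization and filled where the gene passed under 75th percentile scaling; the line marks equal differences. Most genes with small differences lie above the line, so that 40 rather than 25 rose, and Cox4i2 moves from -0.99 to -0.57 and loses its call.

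Other nuclear genes of the same pathway were read from lists, here and in the next paragraphs. All genes gave 25.5% higher and 28.4% lower beside these counts. Of 8 further subunits and carriers 4 rose and none fell (median 0.30), where limma at an unadjusted p under 0.05 (all genes, 31.8% lower) and the methods' t-test (28.1% lower) also had 0 lower. Those that rose were Cyc1 (cytochrome c1) at 0.59 (adjusted p = 0.000529), Cycs (cytochrome c) at 0.42 (adjusted p = 0.0108), Higd1a at 0.33 (adjusted p = 0.0255) and Atpif1, the inhibitor that stops ATP synthase from running backwards. Atpif1 read 14.84, 14.99, 14.88, 15.01 and 14.83 in WT and 15.60, 15.26, 15.62, 15.58 and 15.76 in SCC, a rise of 0.65 ± 0.10 (adjusted p = 0.000708). Etfa, which passes electrons from fat oxidation to ubiquinone, was at -0.035 (adjusted p = 0.861), with a sign that turned under 6 alternatives. Of 35 assembly factors with other names 8 rose (22.9%) and 4 fell (11.4%), with a median of 0.055. The F1 assembly pair split, with Atpaf2 at 0.52 (adjusted p = 0.000984) and Atpaf1 at -0.50 (adjusted p = 0.00343). The complex IV factors Pet100, at 0.73 (adjusted p = 0.00105), and Cox19, at 0.49 (adjusted p = 0.00302), rose, whereas the copper chaperone Cox17 was lower at -0.40 (adjusted p = 0.00629). Cox10, which makes haem O, the precursor of the haem A of complex IV, was at 1.1045 (adjusted p = 0.0311). This call was lost whichever WT array was left out (adjusted p = 0.0534 to 0.0663), by the methods' t-test (adjusted p = 0.0515), with normexp (adjusted p = 0.0543), with replicate as a block (adjusted p = 0.0635) and with slide as a block (adjusted p = 0.34). It was at 0.72 (adjusted p = 0.000883) without SCC replicate 5, whose level was 8.80 when the other tumours had 6.57 to 7.0045.

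In the tricarboxylic acid cycle and pyruvate dehydrogenase, which feed electrons to the chain, 3 of 17 genes rose (all genes, 25.5%) and none fell. The median was 0.14. Limma at an unadjusted p under 0.05 (all genes, 31.8% lower) and the methods' t-test (28.1% lower) also had 0 lower. Dlat, the acetyl transferase of pyruvate dehydrogenase, was at 0.68 (adjusted p = 0.000871), Idh3a at 0.66 (adjusted p = 0.00356) and citrate synthase (Cs) at 0.23 (adjusted p = 0.0272). Dlst was at -0.18 (adjusted p = 0.121), and at 0.10 as the median over its probes. The mitochondrial ribosome, which translates the subunits encoded in mitochondrial DNA, had 33 of 78 protein genes higher and 7 lower (all genes, 25.5% and 28.4%). The median was 0.22. Differences ran from Mrps14 at -0.38 (adjusted p = 0.045) to Mrps18b at 0.71 (adjusted p = 0.00246). Of 21 porins, carriers, import and membrane genes 11 rose (52.4%) and 2 fell (9.52%), with a median of 0.24. The import channel Tomm40 was at 1.03 (adjusted p = 0.000184) and the chaperone Hspd1 at 0.62 (adjusted p = 0.000138). The ADP/ATP carriers went apart: Slc25a5 was at 0.57 (adjusted p = 0.000652), and Slc25a4, the heart and muscle form, read 15.78, 16.50, 16.13, 16.01 and 15.83 in WT and 14.98, 15.49, 14.96, 14.98 and 14.96 in SCC, a difference of -0.98 ± 0.16 (adjusted p = 0.000901). WT replicates 1 and 2 were again its lowest and highest WT arrays, and the part of muscle RNA in this value was not tested.

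Among 16 regulators of mitochondrial biogenesis 5 rose and 1 fell (all genes, 25.5% and 28.4%), with a median of -0.065. Myc, which drives growth genes, read 10.57, 10.40, 9.98, 10.42 and 10.20 in WT and 12.14, 11.11, 12.33, 12.13 and 12.10 in SCC, a rise of 1.6485 ± 0.23 (adjusted p = 0.000295). Esrra, a nuclear receptor that acts on respiratory genes, was at 0.90 (adjusted p = 7.44e-05), and its coactivators Ppargc1b and Pprc1 were at 0.87 (adjusted p = 0.000495) and 0.70 (adjusted p = 0.000739). The helicase of mitochondrial DNA, Twnk, was at 0.30 (adjusted p = 0.0239). Gabpa, the ETS factor named above, was at -0.34 (adjusted p = 0.00458) by its brightest probe. The median of the differences of its probes was 0.33, which is not a fitted value.

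**Figure D5:**
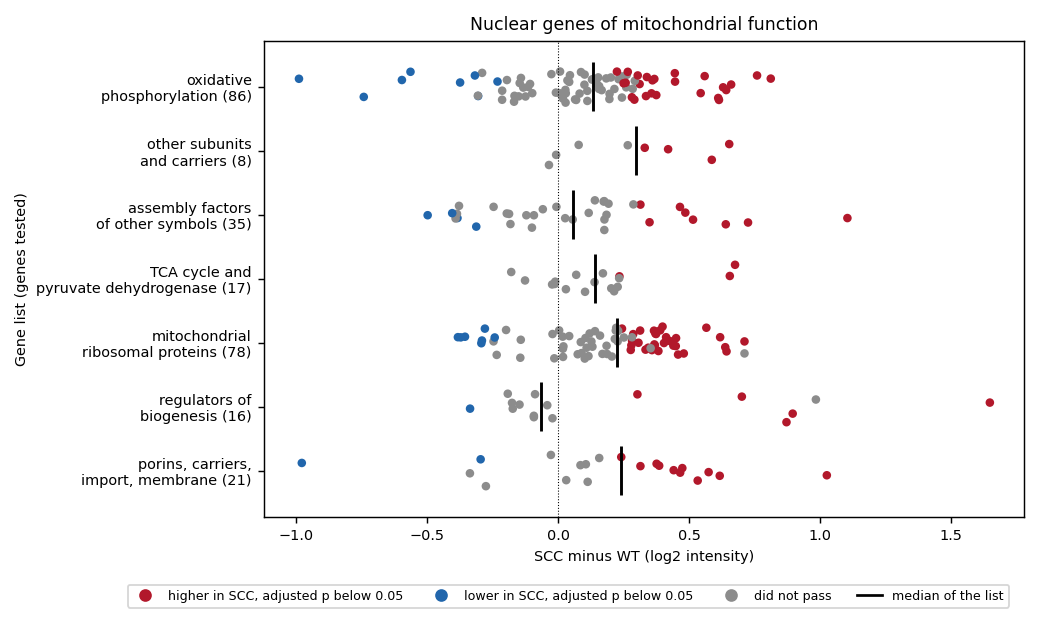
Difference of each tested gene (SCC minus WT, log2, horizontal axis) in the oxidative phosphorylation genes and in 6 lists of related mitochondrial genes (rows, with the number tested); red genes rose, blue genes fell, grey genes did not pass, black bars are medians, and the height of a point within its row has no meaning. Medians lie between -0.065 in the regulators and 0.30 in the other subunits and carriers, and Myc at 1.6485 is the point farthest to the right.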

How the data were processed

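RNA of 5 WT lungs and 5 SCCs was hybridised to 1-colour Agilent whole-genome arrays. The authors extracted the scans with Agilent Feature Extraction 12 (the headers give it), and the deposited scanner files hold background-subtracted processed intensity per spot. The authors also deposited a log2 matrix, which they made by quantile normalization; it chose the probe of each gene, the one with the highest mean over its 10 columns, and served as an alternative. Their one-way analysis of variance was replaced by limma, as both compare 2 groups without covariates.

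Control and outlier spots were dropped, spots of a probe were averaged as log2 intensity, and the 41174 probes were quantile-normalized. A probe was tested if well above background on at least 4 of 5 arrays of a group (30374 probes). The SCC minus WT differences came from limma 3.58.1 under R 4.3.3, using its functions lmFit and eBayes, and the two-sided p-values were adjusted over all tested probes. The number of arrays limits the precision. The fit was tested on simulated data. Accessions were paired with symbols through RefSeq (GRCm38.p6), which named 28223 probes; the scanner files use another build. Groups and replicate numbers came from the sample titles.

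Members and lists were chosen with earlier results of these data known. Named genes were preset core and isoform genes, the 2 most positive and 2 most negative differences of each complex and of the assembly factors, and the extremes of each related list; further genes that rose or fell were named after their values were seen. The value of 1 tested member, which is in every count and median, is not reported here and not drawn in the plot of single genes. Alternatives were 75th percentile scaling, normexp background correction with an offset of 50, the deposited matrix, other filters on dim probes, slide or replicate as a block, the second slide alone, the methods' t-test, array weights, the median over probes, and leaving out arrays.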

Additional observations from a re-analysis of the deposited data

Results flagged for a closer look

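Of 102 groups of 5 arrays examined, 10 held an array whose gap to its nearest neighbour, as a share of the group's range, was above the critical value of 0.71. Chance flags about 1 group in 20. In 9 of the 10 the array was SCC replicate 2, and in none SCC replicate 5. SCC replicate 2 was the highest SCC array for Sdhc (gap 0.833, at 12.56 against 12.26 for the next), Atp5j (gap 0.795, at 15.36 against 14.96), Sdha (gap 0.773, at 12.21 against 11.48), Ndufaf1 (gap 0.770, at 10.28 against 9.83), Cox4i1 (gap 0.765, at 16.35 against 16.04), Atp5h (gap 0.761, at 15.86 against 15.58) and the median of complex II (gap 0.755, at 0.491 against 0.252 above the WT means). It was the lowest SCC array for Ndufa4 (gap 0.805, at 14.63 against 15.14) and Atp5mpl (gap 0.790, at 12.65 against 13.25). WT replicate 1 was the lowest WT array for Atp5mpl (gap 0.765, at 12.001 against 12.43). SCC replicate 2 also stood apart in cell type markers, given as the median log2 difference from the WT means over each list. Squamous markers were at 6.62 on it against 9.66 to 10.02 on the other SCC arrays, proliferation genes at 1.6487 against 2.93 to 3.34, neutrophil markers at -0.54 against 1.97 to 2.18, macrophage markers at -0.45 against 0.83 to 1.07 and endothelial markers at -1.39 against -2.92 to -2.39. The part of these in the gaps was not tested.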

How the results depend on the processing

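Of 1333 values recomputed for 58 named genes, 1139 kept their direction and side of the threshold, 137 lost and 32 gained a call, and 25 changed sign, 1 of them for a called gene (Gabpa). With 75th percentile scaling 40 members were higher and 5 lower (all genes, 27.6% and 26.1%), and the median of complex V was 0.38. With slide as a block 3 were higher and 0 lower (6.94% and 7.98%), and within the second slide 0 and 0 (3 and 0 at an unadjusted p under 0.05 by limma, where all genes had 8.1% and 12.5%); both gave medians of 0.38 in complex II and 0.34 in complex III. With array weights 19 were lower (all genes, 35.6%), and with SCC replicates 2 and 5 left out 18 (34.6%). Requiring a 2-fold difference left 0 higher and 0 lower. Leaving out 1 array at a time gave 17 to 24 higher and 6 to 18 lower, the 18 without SCC replicate 2 (all genes, 22% to 30.2% and 24.6% to 33.7%). Of the 25 genes that rose, 17 kept their call in all 10 leave-outs, as did 6 of the 8 that fell. In these leave-outs no median of complexes I to V moved by more than the spread between replicates, but the median of the assembly factors went from -0.12 to -0.24 without SCC replicate 2. The deposited matrix, a random slide block and the strict filter gave the same counts.

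A replicate block gave 15 higher and 5 lower (all genes, 21.2% and 23.4%). Deviations of same-numbered arrays correlated at -0.10 to 0.0087, so no pairing by number was seen. Differences between tumours could hide one, and whether samples were paired by design was not tested.

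Signs turned as follows, and no fitted value among them had an adjusted p below 0.05. With 75th percentile scaling Cox6a1 was at 0.15, Atp5j at 0.029 and Ndufaf2 at -0.0029. With normexp correction Ndufaf2 was at -0.0045 and Etfa at 0.016. With array weights Ndufv1 was at -0.026, Cox7a2l at -0.0098, Ndufaf2 at -0.072 and Ndufaf5 at -0.0067. With slide as a block, and within the second slide, Atp5j was at 0.0059 and Etfa at 0.10. With SCC replicates 2 and 5 left out, Ndufv1 was at -0.021 and Ndufaf2 at -0.093. Without single arrays, Ndufv1 ran from -0.043 to 0.066, Cox7a2l from -0.041 to 0.077, Ndufaf2 from -0.056 to 0.053, Ndufaf5 from -0.015 to 0.0997 and Etfa from -0.14 to 0.043. As the median over probes, Dlst was at 0.098 and Gabpa at 0.33. These are medians of the probes' differences and not fitted values. For Gabpa the median of the probes' limma adjusted p-values was 0.015. The causes were not tested.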
